A study of Rattus norvegicus with 6 samples.

Results

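The growth hormone receptor and insulin-like growth factor (IGF) axis was examined through 4 genes in rat liver, chosen by their Ensembl gene IDs: Ghr (ENSRNOG00000015654), Igf1 (ENSRNOG00000004517), Igf2 (ENSRNOG00000020369) and Igf1r (ENSRNOG00000014187). All 4 were found among the 43360 IDs of the count files, and all 4 passed the filter on low counts that left 16898 IDs for testing. The livers came from male Fischer-344 rats of about 180 g at the start, 18 in the whole study, and the treatments ran for 16 weeks. Control rats received oral carboxymethyl cellulose, the vehicle. The HCC group, named for hepatocellular carcinoma, received the liver carcinogens diethylnitrosamine (DEN, 50 mg/kg intraperitoneally each week) and then 2-acetylaminofluorene (2-AAF, 25 mg/kg orally). The HCC/NAC group received both carcinogens plus daily oral N-acetylcysteine (NAC, 300 mg/kg), a cysteine donor for glutathione synthesis. No transgene or engineered allele is named for any group. For each group the RNA of 5 animals was pooled and sequenced as 2 poly(A) libraries, so no value belongs to a single rat. Whether the 2 pools of a group held different animals is not stated, and p-values here reflect the spread between libraries only, whether biological or technical.

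Growth hormone, released by the pituitary, binds the receptor encoded by Ghr on hepatocytes and acts through the kinase JAK2 and the transcription factor STAT5, of which Igf1 is a classical target. The liver is the main source of circulating IGF1. Igf2 encodes a related growth factor that is imprinted, abundant in fetal rodent liver and almost silent in adult rodent liver, and that is often expressed again in liver tumours. Both ligands signal through the receptor kinase encoded by Igf1r, which mature hepatocytes express weakly.

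The promoter sequences of the 3 genes that changed are shown because these genes moved in different directions. They come from RefSeq on build GRCr8, matched by gene symbol (4 of 4 genes had an entry), and each covers the 250 bases before an annotated transcription start, 5′ to 3′ on the gene's own strand. Igf2 has 2 such starts in the table. Capitals mark matches, on either strand, to any of 6 short motifs. The TATA-box core was searched as TATAAA. A looser form of that core was searched as ATAAAA, and it overlaps the first where the letters allow. The GC box, bound by SP1-type factors, was searched as GGGCGG. The remaining motifs were the CCAAT box, the STAT site with the letters TTCNNNGAA, and a site resembling that of the C/EBP factors, with the letters TTGCNNNAA.
Igf2, upstream start, chr1:207253981-207254230, minus strand: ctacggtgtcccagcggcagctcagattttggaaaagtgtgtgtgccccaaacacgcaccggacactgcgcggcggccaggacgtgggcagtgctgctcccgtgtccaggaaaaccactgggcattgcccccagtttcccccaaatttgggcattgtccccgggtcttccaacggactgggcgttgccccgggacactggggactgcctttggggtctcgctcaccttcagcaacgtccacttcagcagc
Igf2, downstream start, chr1:207250476-207250725, minus strand: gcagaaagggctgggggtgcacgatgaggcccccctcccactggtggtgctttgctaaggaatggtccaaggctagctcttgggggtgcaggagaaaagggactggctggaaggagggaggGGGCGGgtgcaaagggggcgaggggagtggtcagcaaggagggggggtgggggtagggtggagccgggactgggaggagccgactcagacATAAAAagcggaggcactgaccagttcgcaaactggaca
Igf1, chr7:24172282-24172531, plus strand: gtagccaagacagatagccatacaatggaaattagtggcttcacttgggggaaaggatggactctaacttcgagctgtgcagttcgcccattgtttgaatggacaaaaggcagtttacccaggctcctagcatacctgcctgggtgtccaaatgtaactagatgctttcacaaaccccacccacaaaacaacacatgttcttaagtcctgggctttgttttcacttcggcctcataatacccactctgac
Ghr, chr2:54432076-54432325, minus strand: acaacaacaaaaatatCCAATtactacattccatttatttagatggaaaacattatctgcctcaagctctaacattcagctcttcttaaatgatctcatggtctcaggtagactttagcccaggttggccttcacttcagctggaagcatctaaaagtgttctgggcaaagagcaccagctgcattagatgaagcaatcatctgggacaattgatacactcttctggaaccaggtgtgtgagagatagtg
The window before the downstream Igf2 start holds the TATA-like core at 39 to 34 bases before the start. It also holds a GC box at 129 to 124 bases before the start. Among all 33469 windows of the same length in the table, 18.6% hold the TATA-like core and 30.5% hold a GC box. The window before the upstream Igf2 start and the Igf1 window hold none of the 6 motifs (0 matches each), and the Ghr window holds only a CCAAT box, which 34% of all windows hold. The STAT site, found in 7.67% of all windows, was in none of these 4 windows (0 matches), which says nothing of sites elsewhere. The TATA-box core TATAAA was found in 12.9% of all windows and the C/EBP-like site in 8.17%. Base composition differed between these windows. G and C made up 62.4% and 63.6% of the Igf2 windows, 46.8% of the Igf1 window and 40.8% of the Ghr window. Over all windows the median was 51.2%, with quartiles of 44% and 60%. The Igf2 windows held 15 and 7 CpG dinucleotides, the Igf1 window 3 and the Ghr window 0. Over all windows the median was 5, with quartiles of 2 and 15. The counts are per gene, so they do not tell which start the Igf2 reads came from.

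Library totals lay between 33917707 and 37717373 counts. IDs with a count numbered 15646 and 19066 in the control libraries, 20317 and 20550 in HCC and 17529 and 17684 in HCC/NAC. The 2 HCC libraries had scaling factors (TMM, the trimmed mean of M values) of 1.19 and 1.18, the other 4 between 0.91 and 0.92. Levels are given in CPM, the standard depth-scaled count, relative to the TMM-scaled library size. They are not corrected for gene length, so levels are compared within a gene only. The markers that would check the liver label were not analysed here, because the reference table paired 0 of the files' IDs with symbols. For the same reason the other genes of the pathway, such as the IGF binding proteins and the STAT5 pathway, were not analysed here.

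The ligand Igf2 showed the widest change of the 4 genes. It stood at 0.869 and 0.664 CPM in the control libraries (30 and 22 counts), at 67.6 and 62.5 CPM in the HCC libraries (3045 and 2504 counts) and at 1.11 and 1.78 CPM in the HCC/NAC libraries (37 and 58 counts). Both HCC libraries were far above the other 4. Group means were 0.767 ± 0.14, 65.0 ± 3.6 and 1.45 ± 0.47 CPM (SD, n = 2 each) in control, HCC and HCC/NAC livers.

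Against control, Igf2 rose 84.3-fold in HCC livers, or 6.40 ± 0.22 on the log2 scale (SE; adjusted p = 4.32e-10, edgeR quasi-likelihood test), with a 95% interval of 60.1- to 118.2-fold. In this comparison 34.8% of all tested IDs were called, 17% as higher and 17.8% as lower. By fitted fold, the rise of Igf2 ranked 381st of all 16898 tested IDs. This and the later rankings over all tested IDs include IDs with 0 CPM in a group, whose fitted folds can be very large. With NAC added to the carcinogens, Igf2 fell by 5.49 on the log2 scale against HCC, or 44.9-fold (SE 0.21; adjusted p = 3.5e-09, edgeR), with an interval of 32.8- to 61.3-fold. By fitted fold this fall ranked 195th of all 16898 tested IDs, in a comparison where 27.7% of tested IDs were called, 11.2% as higher and 16.5% as lower. The median tested ID differed by 0.48 between HCC/NAC and HCC, in either direction, on the log2 scale. The call and the direction of both Igf2 changes were the same under all 15 alternative settings, with log2 fold changes of 6.29 to 6.77 for HCC against control and of -5.88 to -5.21 for HCC/NAC against HCC. In bulk tissue, more cells with Igf2 RNA and more Igf2 RNA per cell cannot be told apart. The same holds for the falls described next.

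Igf2 in HCC/NAC livers was 1.88-fold above control, or 0.91 ± 0.28 on the log2 scale (SE; adjusted p = 0.0202, edgeR), where 46.2% of tested IDs were called, 21.3% as higher and 24.9% as lower. This small difference was not stable. It lost its call in the fit of these 2 groups alone (adjusted p = 0.436), without control replicate 2 (0.0808), without HCC/NAC replicate 2 (0.193) and with limma's voom weights per library (0.411), while adjusted p was between 0.00312 and 0.0371 under the other 11 settings (edgeR or DESeq2). Without HCC/NAC replicate 2 the log2 fold change was 0.52. Counting error alone gave 95% Poisson intervals of 20.2 to 42.8 and 13.8 to 33.3 counts for the control libraries, and of 26.1 to 51.0 and 44.0 to 74.98 counts for the HCC/NAC libraries. The interval of HCC/NAC replicate 1 overlaps both control intervals. On the log2 scale, the 593 other IDs within 1.2-fold of the Igf2 control level differed between the control libraries by a median of 0.85. That is a difference between 2 single libraries, so it is not of the same kind as the 0.91 of Igf2 between 2 group means. Igf2 itself differed by 0.39 between the control libraries and by 0.68 between the HCC/NAC libraries.

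**Figure D1:**
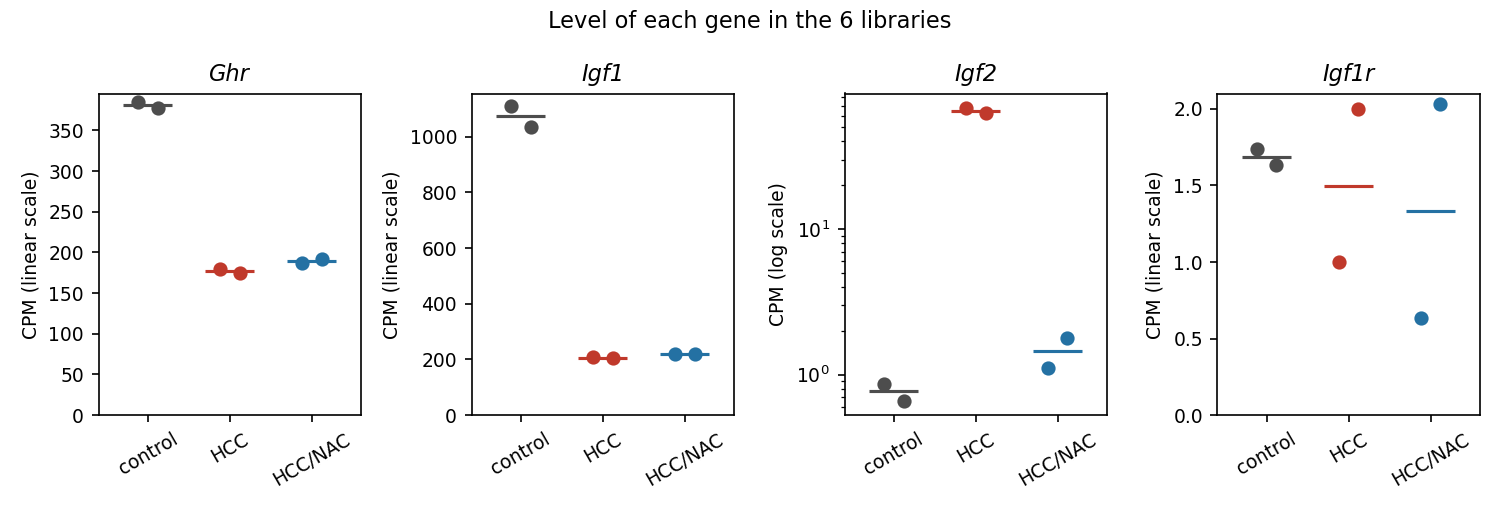
Levels of Ghr, Igf1, Igf2 and Igf1r in CPM; each point is 1 library, each line the mean of 2, and the Igf2 axis is logarithmic while the others start at 0. Igf2 is high in the 2 HCC libraries alone (67.6 and 62.5 CPM), Ghr and Igf1 are low in all 4 carcinogen-treated libraries, and the Igf1r points of the 3 groups overlap.

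The ligand Igf1 fell in both carcinogen groups. It was 1110 and 1035 CPM in the control libraries (38322 and 34284 counts), 207 and 206 CPM in the HCC libraries and 218 and 219 CPM in the HCC/NAC libraries. The 4 carcinogen-treated libraries lay within a narrow band far under both controls. Mean levels were 1072 ± 53, 207 ± 0.91 and 219 ± 0.30 CPM (SD, n = 2 each) in control, HCC and HCC/NAC livers. Igf1 was 5.19-fold lower in HCC than in control livers (-2.38 ± 0.05 on the log2 scale, SE; adjusted p = 2.99e-12, edgeR). It was 4.91-fold lower in HCC/NAC than in control livers (-2.29 ± 0.05, SE; adjusted p = 4.8e-12, edgeR). Both comparisons use the same control libraries. By fitted fold, the Igf1 fall ranked 388th of the 16898 tested IDs in HCC and 605th in HCC/NAC livers. Among the 7485 IDs with a mean of at least 10 CPM it ranked 75th and 102nd. As a share of all counts, Igf1 took 0.102% and 0.0946% in control, 0.0248% and 0.0243% in HCC, and 0.0201% and 0.02002% in HCC/NAC livers.

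The receptor gene Ghr fell by less. The control libraries had 385 and 377 CPM, the HCC libraries 179 and 174 CPM and the HCC/NAC libraries 187 and 192 CPM. Both carcinogen groups were under control. Ghr was 2.16-fold lower in HCC livers (log2 fold change -1.11 ± 0.05, SE; adjusted p = 5.06e-09, edgeR) and 2.01-fold lower in HCC/NAC livers (-1.01 ± 0.05, SE; adjusted p = 1.26e-08, edgeR) than in control livers. The Ghr falls ranked 1548th and 2659th of the 16898 tested IDs, and 572nd and 1166th of the 7485 IDs with a mean of at least 10 CPM. The falls of Igf1 and Ghr against control were called under all 15 alternative settings. The smallest were a log2 fold change of -0.74 for Ghr and -2.00 for Igf1 in HCC livers.

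Between HCC/NAC and HCC livers neither Ghr nor Igf1 passed the test. Ghr differed by 0.10 (95% interval -0.01 to 0.21; adjusted p = 0.169, edgeR) and Igf1 by 0.08 (-0.02 to 0.18; adjusted p = 0.224, edgeR) on the log2 scale, so a difference beyond 1.16-fold for Ghr or 1.13-fold for Igf1 in the direction of control lies outside these intervals. Direction and call depended on the scaling. Ghr was called higher with NAC under RLE and upper-quartile scaling, with DESeq2 and with a stricter filter, by 0.15 to 0.16, and Igf1 under RLE scaling, DESeq2 and the stricter filter, by 0.13 to 0.14. With libraries scaled to their total counts both were called lower with NAC, by -0.27 for Ghr and -0.29 for Igf1. That scaling moved the median of all tested IDs by -0.37, as far as it moved these genes.

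**Figure D2:**
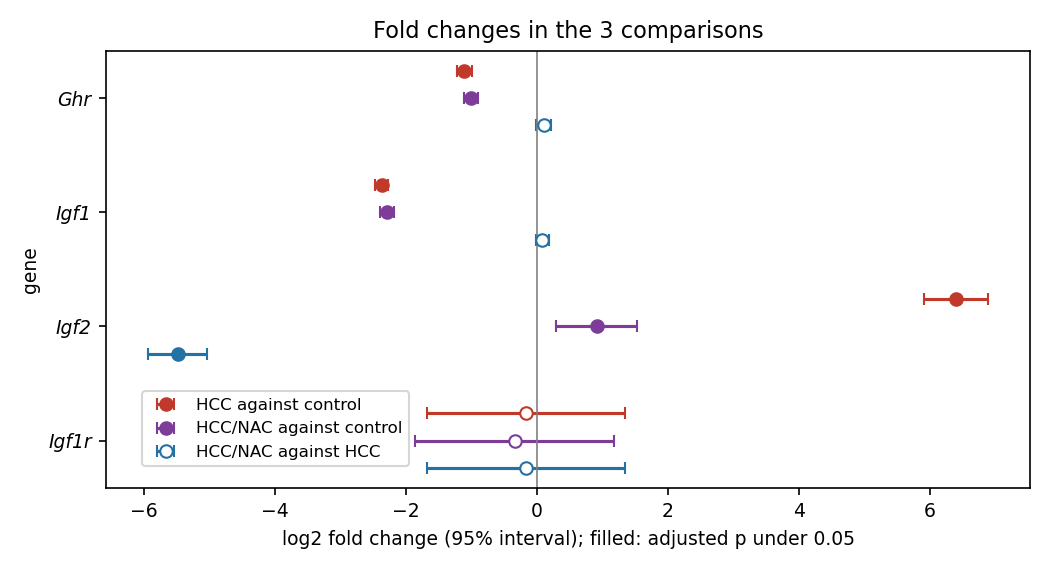
Log2 fold changes of the 4 genes in the 3 comparisons, from the edgeR fit to all 6 libraries, with 95% intervals; filled points have an adjusted p under 0.05. Ghr and Igf1 lie under 0 against control in both carcinogen groups and near 0 between them, and Igf2 is at 6.40 for HCC against control and at -5.49 for HCC/NAC against HCC.

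Ratios of 2 genes' counts within a library do not depend on scaling. They carry the genes' lengths, so only their change between groups is read. There were 2.88 and 2.74 Igf1 counts per Ghr count in the control libraries, 1.16 and 1.18 in the HCC libraries and 1.17 and 1.14 in the HCC/NAC libraries. The means were 2.81 ± 0.10, 1.17 ± 0.02 and 1.15 ± 0.02 (SD, n = 2 each). Igf1 thus lost more of its counts than Ghr in both carcinogen groups, and the HCC and HCC/NAC values overlapped. Per 100 Igf1 counts there were 0.0783 and 0.0642 Igf2 counts in control, 32.6 and 30.3 in HCC, and 0.510 and 0.815 in HCC/NAC livers. The 3 groups did not overlap in this ratio. With 2 libraries against 2, an exact two-sided permutation test cannot give a p under 0.333, so these ratios are given without a test.

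**Figure D3:**
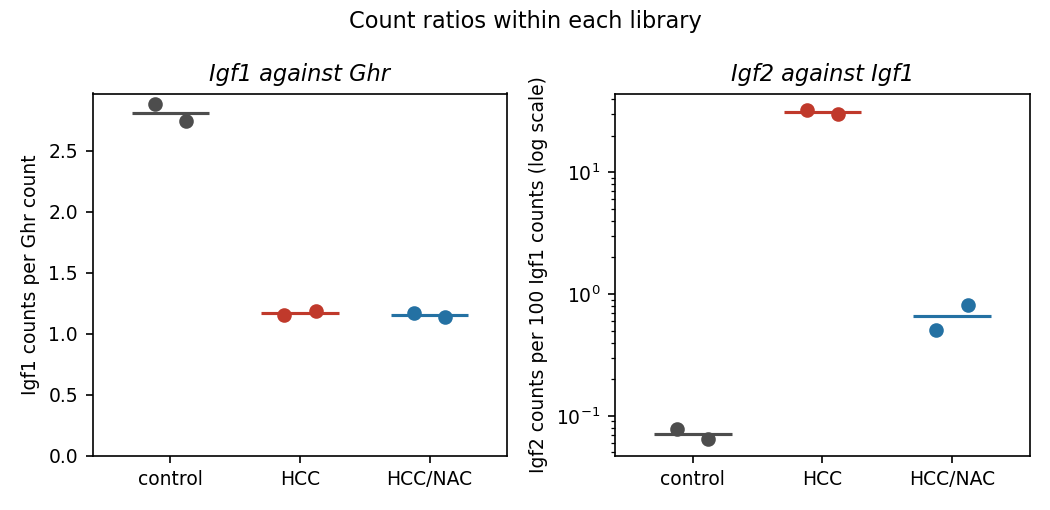
Count ratios within each library: Igf1 counts per Ghr count (left, axis from 0) and Igf2 counts per 100 Igf1 counts (right, log axis); each point is 1 library and each line the mean of 2. The Igf1 to Ghr ratio is 2.74 or more in control and at most 1.18 in the other libraries, while the Igf2 to Igf1 ratio is above 30 in the HCC libraries alone.

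The shared receptor Igf1r was weakly counted in every library, with 60 and 54 counts in control, 45 and 80 in HCC and 21 and 66 in HCC/NAC livers. These corresponded to 1.74 and 1.63, 1.00 and 2.00, and 0.632 and 2.03 CPM. The HCC and HCC/NAC replicates lay 2.00- and 3.21-fold apart, and the ranges of the 3 groups overlapped. Igf1r passed the test in no comparison (0 of 3). Its log2 fold changes were -0.17 (95% interval -1.68 to 1.34; adjusted p = 0.876, edgeR) in HCC against control, -0.34 (-1.86 to 1.18; adjusted p = 0.727) in HCC/NAC against control and -0.17 (-1.68 to 1.35; adjusted p = 0.902) in HCC/NAC against HCC. Changes of up to 2.53-fold upward or 3.20-fold downward in HCC livers lie inside the first interval, so these libraries do not exclude them. The sign of these values turned when a single library was left out: HCC replicate 1 for HCC against control (0.25), HCC/NAC replicate 1 for HCC/NAC against control (0.25), and HCC replicate 2 or HCC/NAC replicate 1 for HCC/NAC against HCC (0.39 and 0.42).

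The order of levels therefore differed by gene. For Igf2 it was control, HCC/NAC, HCC from low to high, and the step between the 2 lowest groups lost its call under 4 settings. For Igf1 and Ghr it was HCC, HCC/NAC, control under TMM scaling. The test made no call between the 2 lowest groups, and total-count scaling reversed their order. Of the 4 genes, 1 rose and 2 fell in HCC against control, where 34.8% of all tested IDs were called. In HCC/NAC against control also 1 rose and 2 fell, with 46.2% of all IDs called. In HCC/NAC against HCC 1 fell and none rose (0), with 27.7% of all IDs called. With 4 genes these counts describe the genes only.

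**Figure D4:**
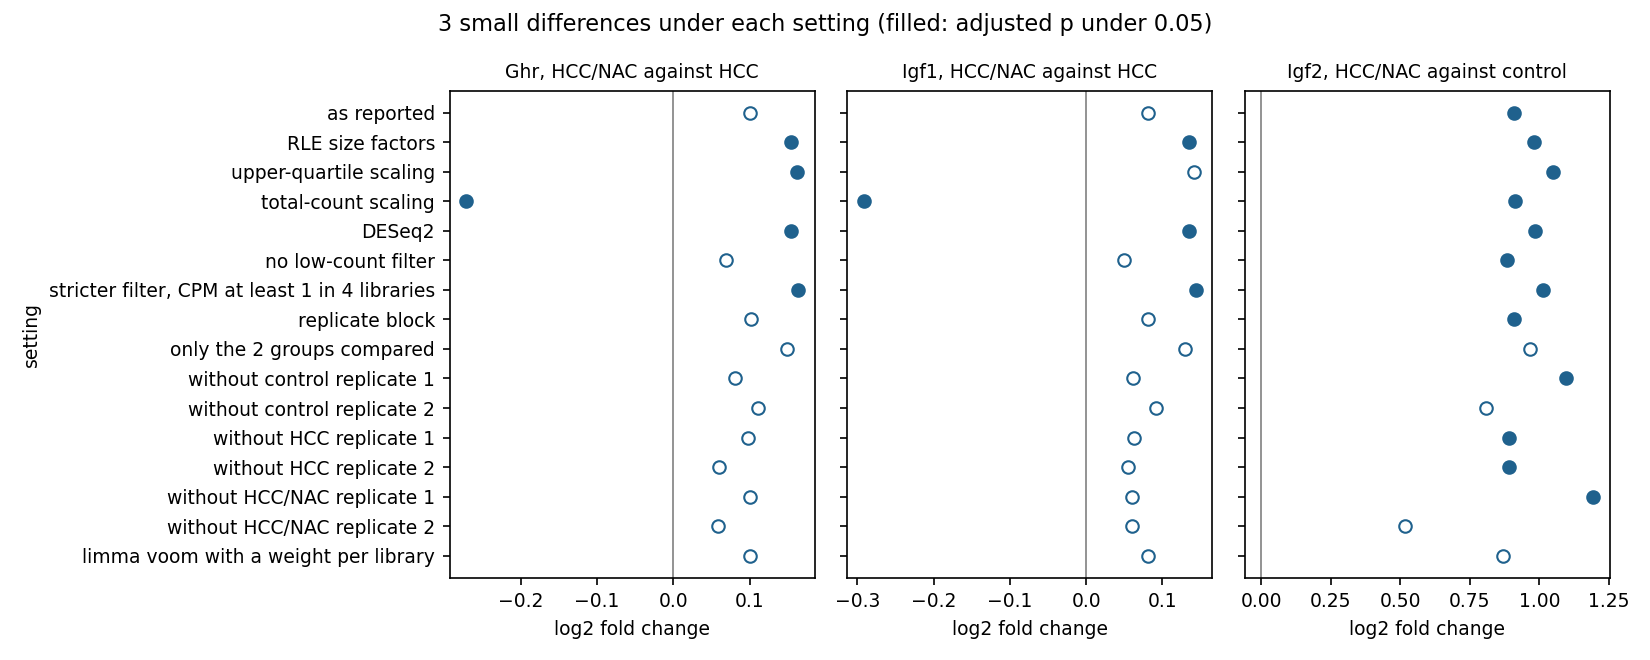
Log2 fold changes of the 3 small differences under the reported fit and 15 other settings; filled points have an adjusted p under 0.05. For Ghr and Igf1 between HCC/NAC and HCC the points stay within 0.16 above 0 except under total-count scaling, at -0.27 and -0.29; for Igf2 between HCC/NAC and control all points are above 0, from 0.52 to 1.19.

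Other IDs were ranked by how closely their profile over the 6 libraries followed each gene (Euclidean distance of centred log2 CPM, among 11870 IDs with a mean of at least 2 CPM). The distance is a description, and the files do not pair these IDs with symbols. The ID nearest to Ghr was ENSRNOG00000027728, at a distance of 0.058, with 151 and 144 CPM in control, 69.2 and 69.96 CPM in HCC and 72.0 and 76.1 CPM in HCC/NAC livers. Nearest to Igf1 was ENSRNOG00000010478, at 0.14, with 4072 and 4299 CPM in control, 815 and 834 CPM in HCC and 842 and 844 CPM in HCC/NAC livers. For Igf1r, which had no call, the nearest ID also had no call in HCC against control and is not named. The profiles were not scaled, so distances grow with the size of a gene's changes and are not compared between genes. Nearest to Igf2 was ENSRNOG00000004692, at 2.58. That ID had 0.376 and 2.33 CPM in control, 78.4 and 83.6 CPM in HCC and 4.82 and 4.15 CPM in HCC/NAC livers.

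The names of the 2 control files begin differently from those of the 4 files of carcinogen-treated livers. Should this mark a batch, it and the carcinogens cannot be told apart in any difference from control, those of Igf1, Ghr and Igf2 included. File names of HCC and HCC/NAC begin alike. What the file names mark is not stated, and a batch was not tested for any of the genes.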

How the data were processed

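Poly(A) RNA of rat liver was sequenced in 6 libraries, 2 for each of 3 groups. The authors deposited raw counts per Ensembl gene ID, made from STAR alignments per the file headers. The submitters' processing notes also name FastQC, featureCounts and edgeR. Versions, genome build, annotation and strand setting were not given in the sources used here, so reads shared by overlapping genes, such as those at the Igf2 locus, may be assigned or dropped in unstated ways. Duplicates are not mentioned, so intervals from counts cover counting error only.

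The 4 member IDs carry the symbols given with the selection; the RefSeq table named 47357 genes but held 0 Ensembl IDs, so the pathway and cell type lists could not be used. The members and lists were chosen with earlier results of these data known. The rule for named genes was to give all 4 members, and, where it rose or fell in HCC against control, the nearest ID of each by profile, with at most 2 risen and 2 fallen IDs.

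Counts were fitted in edgeR 4.0.16 (R 4.3.3): filterByExpr, TMM scaling, and 1 quasi-likelihood model with a mean per group over all 6 libraries (3 residual degrees of freedom). P-values were adjusted by Benjamini-Hochberg over 16898 IDs, and an ID was called at an adjusted p under 0.05. Verbs of change are used of such calls. Standard errors and intervals came from the F statistic of that test. The test and the intervals add degrees of freedom shared across IDs to the 3 residual ones. Alternatives were RLE, upper-quartile and total-count scaling, DESeq2 1.42.0, no filter, a stricter filter (at least 1 CPM in 4 or more libraries), a replicate block, fits of the compared groups alone and leaving out each library; voom of limma 3.58.1, weighting each library, was chosen after seeing the data.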

Additional observations from a re-analysis of the deposited data

How the results depend on the processing

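Of 180 alternative values for the 12 gene results, 162 kept their direction and their side of the threshold. The exceptions concern small differences or low counts. Ghr between HCC/NAC and HCC had log2 fold changes of 0.15 with RLE scaling, 0.16 with upper-quartile scaling, 0.15 with DESeq2, 0.16 with the stricter filter and -0.27 with total-count scaling, and Igf1 had 0.13, 0.14 and 0.13 with RLE, the stricter filter and DESeq2 and -0.29 with total-count scaling. Igf2 between HCC/NAC and control was 0.97 without a call in the fit of these groups alone and 0.87 with limma voom, and 0.52 to 1.19 with a library left out. Igf1r in HCC against control was 0.20 with total-count scaling. With a library left out, Igf1r ranged from -0.75 to 0.25 in HCC against control, from -1.43 to 0.25 in HCC/NAC against control and from -1.26 to 0.42 in HCC/NAC against HCC. Where a group is left with 1 library, that library is assumed to vary like the other groups. The cause was not tested, except that total-count scaling shifted the median of all IDs by 0.37 in HCC against control and by -0.37 in HCC/NAC against HCC. Counts of called IDs stayed within 1.5 times in 44 of 45 cases; for HCC/NAC against HCC they ranged from 3093 to 5075 with a library left out (4686 as reported), the lowest without HCC replicate 1. Total-count scaling gave 5398 higher and 1536 lower IDs in HCC against control, beside 2876 and 3007, and 783 and 5811 in HCC/NAC against HCC, beside 1899 and 2787.

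The labels do not say whether a replicate number pairs the libraries. Deviations of same-numbered libraries from their group means correlated with r = -0.01, 0.01 and 0 across IDs. Many of these IDs have low counts, so the correlations cannot decide whether libraries shared animals or a batch. With the replicate block the counts of calls were 5982, 7650 and 4861 for HCC against control, HCC/NAC against control and HCC/NAC against HCC, and no call of the 4 genes changed.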

Other observations

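The replicates of the abundant genes lay close together, as did those of other IDs of like level (within 1.2-fold). The 2 control libraries differed by 0.03 for Ghr on the log2 scale, beside a median of 0.04 over 101 such IDs. For Igf1 they differed by 0.10, beside a median of 0.04 and a 90th percentile of 0.09 over 42 IDs, so Igf1 varied more between the controls than most IDs of its level. The HCC libraries differed by 0.11 for Igf2, beside a median of 0.06 over 647 IDs. At low levels the spread was wider. For Igf1r the HCC libraries differed by 1.00, beside a median of 0.34 and a 90th percentile of 0.90 over 699 IDs, and the HCC/NAC libraries by 1.68, beside 0.79 and 1.99 over 749 IDs. Of the 5 promoter windows of these genes, that of Igf1r was the richest in G and C (79.6%) and in CpG dinucleotides (45), and it held a GC box at 184 to 179 bases before the start.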
